A study of Mus musculus with 24 samples.

Results

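The knockout effect was compared between the cortex and the cerebellum of mice that lack Cdr1as. The quantity of interest was a difference of effects, (cortex knockout minus cortex wild type) minus (cerebellum knockout minus cerebellum wild type), taken on the log2 scale for each gene. It asks which genes respond to loss of Cdr1as in the cortex and respond less, not at all or the other way in the cerebellum. The 12 libraries of these 4 groups were chosen by region from the 24 of the series, which also covers hippocampus and olfactory bulb. The groups, with 3 libraries each, were Cdr1as knockout (KO) cortex, wild-type (WT) cortex, KO cerebellum and WT cerebellum, dissected from C57BL/6 mice. No other allele, agent or treatment is named for any group, and ages are not given in the labels. The RNA was taken up in TRIzol and cleared of ribosomal RNA with RNase H, and TruSeq libraries of total RNA that keep the strand were sequenced and counted per gene. The replicates are numbered 1 to 3, and nothing in the labels ties a number to an animal. The p-values therefore cover only how far these libraries spread, and that spread may be technical.

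Cdr1as is a circular RNA of neurons that is spliced from the strand opposite the Cdr1 gene and is packed with binding sites for the microRNA miR-7. A microRNA pairs through its seed with target messenger RNAs and lowers their stability or translation. Early response genes such as Fos, Egr1, Arc and the NR4A receptors are switched on within minutes of neuronal activity or growth factor signals, without new protein synthesis, and many encode transcription factors that pass the signal on. The cortex is built mainly of glutamatergic projection neurons with inhibitory interneurons between them, whereas the cerebellum consists mostly of granule cells, with Purkinje cells as its output. The mature miR-7 sequences of the mouse, from RefSeq (GRCm38.p6), are shown because they are the partner of the deleted RNA, with the seed (bases 2 to 8) in capitals. The pair shares 1 seed.
mmu-miR-7a-5p: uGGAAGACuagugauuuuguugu
mmu-miR-7b-5p: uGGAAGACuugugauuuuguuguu

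The 12 libraries held 6500197 to 30459968 gene counts and 13741 to 22144 detected genes. The library labelled cerebellum KO 1 stood apart, with the fewest of both, where the others held at least 9895374 counts and 20024 genes, so the main results are also given without it. Regional markers followed the labels. Fat2, a granule cell cadherin, averaged 1.77 and 1.49 CPM in KO and WT cortex and 2366 and 2556 CPM in KO and WT cerebellum. Neurod6, a factor of cortical projection neurons, averaged 48.8 and 52.5 CPM in KO and WT cortex and 2.26 and 2.76 CPM in KO and WT cerebellum. CPM here are counts per 1e6 of the scaled library size, so they compare libraries for 1 gene and not genes with each other.

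Cdr1as was all but absent from KO libraries of both regions, and its wild-type level was higher in the cerebellum. In KO libraries it stood at 0.298, 0.4 and 0.34 CPM in the cortex, against 961, 1196 and 720 CPM in WT cortex. Cerebellar levels were 0, 0.457 and 0.233 CPM in KO libraries, against 4192, 4174 and 3780 CPM in WT libraries. The groups were far apart in each region. With edgeR's quasi-likelihood test, adjusted over all genes by Benjamini-Hochberg, Cdr1as fell by 11.41 (SE 0.32) on the log2 scale in the cortex (adjusted p = 6.35e-10) and fell by 13.76 (SE 0.35) in the cerebellum (adjusted p = 1.79e-10). The difference of 2.35 (SE 0.59, unadjusted p = 0.00159, adjusted p = 1) rests on 21 counts in KO cortex and 12 in KO cerebellum.

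Across all genes, few responses could be told apart between the regions. In edgeR's quasi-likelihood test 1 of 16663 genes tested, 0.006%, had a difference of effects with an adjusted p under 0.05, and that gene was Eomes. At an unadjusted p under 0.05 there were 336 genes (2.02%), of which 192 (1.15%) were higher and 144 (0.864%) were lower in the cortex relative to the cerebellum. Without cerebellum KO 1 Eomes was again the 1 gene called, 0.00588% of 17013 tested, and 508 genes (2.99%) had an unadjusted p under 0.05. Within the cortex 5 genes (0.03%) passed, with Arc, Junb and Per1 raised (0.018%) and Cdr1as and Eomes lowered in KO, and 790 (4.74%) had an unadjusted p under 0.05. Within the cerebellum 2 genes (0.012%) passed, with Nr4a3 raised and Cdr1as lowered, and 511 (3.07%) had an unadjusted p under 0.05. These calls numbered 7 (0.0411%) in the cortex and 4 (0.0235%) in the cerebellum without cerebellum KO 1. Where nothing differs, a share of 0.05 of all genes is expected at an unadjusted p under 0.05. The shares given above at that cut, from edgeR without a block, all lie below this and show no excess in that fit. They do not show that nothing differs. With limma voom and sample quality weights, 1616 of 16663 genes had an unadjusted p under 0.05 for the difference. The replicate numbers were taken to pair KO with WT libraries in the cortex. A fit with the number as a block called 10 genes there (0.06%), namely Cdr1as, Arc, Junb, Per1, Fos, Nr4a1, Egr1, Bhlhe40, C230004F18Rik and Dusp5. A block shared by both regions was fitted for the difference only. Its effects within a region refer to replicate 1, so its calls there are not set beside these. The other tools made more calls. In the cortex DESeq2 called 56 genes (0.336%) and limma voom with sample quality weights 119 (0.714%), and in the cerebellum they called 15 (0.0901%) and 37 (0.222%). For the difference DESeq2 called Eomes, Vipr2, Arc, Chrm4 and Rara (5 genes, 0.03%), and voom called 14 (0.084%), of which Egr1, Nab2, Bhlhe40, Eomes and Nr4a2 had the smallest p.

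The median difference over all genes was 0.06, from a median of 0.02 in the cortex and −0.05 in the cerebellum. For the 10802 genes at a mean log2 CPM of 3 or more, the median SE of the difference was 0.241, and the median half-width of its 95% interval was 0.521. At this number of libraries, a typical gene needed an estimate beyond that half-width for an unadjusted p under 0.05. Passing after adjustment took a larger one. The Vipr2 difference of −2.15, for example, missed in edgeR (adjusted p = 0.165). Knockout and wild-type libraries did not overlap for 2188 genes in the cortex (13.1%) and for 1874 in the cerebellum (11.2%). KO lay on the same side of WT in every library of both regions for 257 genes (1.54%), 151 of them (0.906%) higher in both and 106 (0.636%) lower in both. It lay on opposite sides for 75 genes (0.45%), of which 58 (0.348%) were higher in KO cortex and lower in KO cerebellum and 17 (0.102%) the reverse. The effects in the cortex and the cerebellum correlated weakly across genes, with Pearson's r = 0.134 without Cdr1as, and at r = 0.449 over 71 early response genes. Genes are not independent replicates, and this description carries no test.

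**Figure D1:**
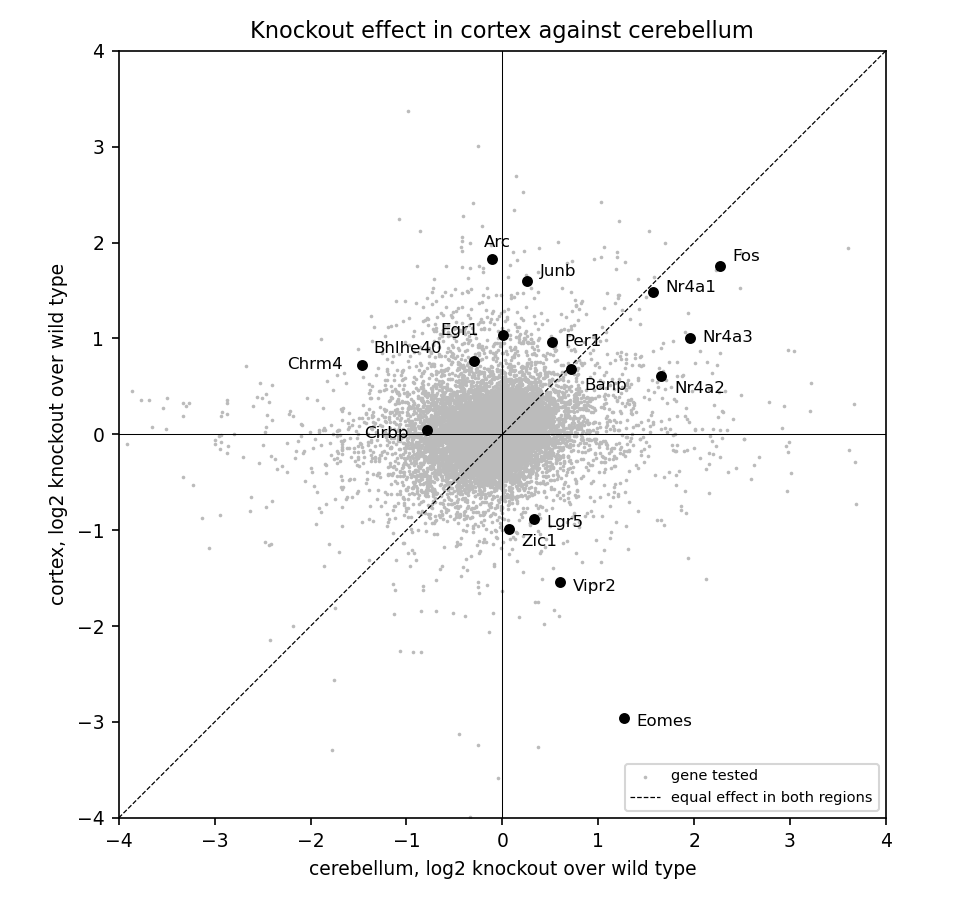
Knockout effect of each tested gene besides Cdr1as in the cortex (vertical axis) against the cerebellum (horizontal axis), as log2 KO over WT, with the dashed line marking equal effects. Arc, Egr1 and Junb lie high at a cerebellar effect near 0, Fos and the NR4A genes lie above 0 on both axes, and Eomes and Vipr2 lie at the lower right. A further 12 genes lie beyond the axis limit of 4.

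Eomes gave the clearest contrast, with less RNA in KO cortex and more in KO cerebellum than in WT. Eomes (also called Tbr2) encodes a T-box transcription factor of neuronal precursors which in the adult brain marks mitral and tufted cells of the olfactory bulb and unipolar brush cells of the cerebellum. It measured 0.128, 0.577 and 0.34 CPM in KO cortex, against 3.79, 2.71 and 1.84 CPM in WT cortex. The cerebellum gave 50.4, 52.3 and 66.3 CPM in KO libraries, against 27.2, 19.4 and 23.7 CPM in WT libraries. Neither pair of groups overlapped, and the cortical level was low in both genotypes, at 21 counts in all in KO and 135 in WT. Eomes fell by 2.95 (SE 0.42, adjusted p = 0.0491) in the cortex, while its cerebellar effect of 1.26 (SE 0.27, adjusted p = 0.585) did not pass in edgeR. The cerebellar effect passed with DESeq2 (adjusted p = 0.00196) and voom (adjusted p = 8.46e-05), but in none of the 12 edgeR fits that left out a library. The cortical effect passed with DESeq2 (adjusted p = 2.09e-08) and missed with voom (adjusted p = 0.0554). With the replicate number as a block the cortical effect was −3.03 (adjusted p = 0.0836). The difference of −4.22 (SE 0.50, adjusted p = 0.0225, edgeR) had a 95% interval of −5.29 to −3.14. Without cerebellum KO 1 it was −4.30 (adjusted p = 0.0444). The sign held without each of the 12 libraries in turn, but the call was lost, with an adjusted p of 0.0638 to 0.145, when cortex KO 1 or 3, cortex WT 2, cerebellum KO 2 or 3, or any of the 3 cerebellum WT libraries was left out. It was also lost with the share of reads in no annotated gene as a covariate (adjusted p = 0.07) and with the replicate number as a block, within each region (adjusted p = 0.0906) or shared by both (adjusted p = 0.132).

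Other genes of the olfactory bulb were, like Eomes, mostly lower in KO cortex, and their part in its change was not tested. Of 23 olfactory bulb markers 22 were tested, and 20 of them had an effect at or below 0 in the cortex, with a median of −0.41 against 0.02 over all genes. The 11 hypothalamic neuropeptides tested had the same cortical median. In the cerebellum 11 of 22 lay above 0, with a median of 0.01 against −0.05 over all genes. The summed level of the list was 678 to 761 CPM in KO cortex, against 803 to 902 CPM in WT cortex, with no overlap. The cerebellar sum was 1807 to 1841 CPM in KO libraries, against 1684 to 1808 CPM in WT libraries. Calb2 (calretinin), Th (tyrosine hydroxylase, of dopamine synthesis) and Synpr (synaptoporin, a vesicle protein) were the members besides Eomes whose difference had an unadjusted p under 0.05. Calb2 measured 17.2, 10.4 and 18 CPM in KO cortex, against 46.3, 16.8 and 26.9 CPM in WT cortex, which overlap, and its difference was −1.09 (SE 0.41). Th measured 3.27, 2.18 and 1.9 CPM in KO cortex, against 8.03, 3.71 and 4.4 CPM in WT cortex, without overlap, and its difference was −1.77 (SE 0.60). None of these members apart from Eomes passed after adjustment. Sp8, a zinc finger factor of bulb interneurons, had 2.08, 2.75 and 3.53 CPM in KO cortex, against 8.28, 5.42 and 4.78 CPM in WT cortex, and was at or near 0 in every cerebellar library. In tissue libraries, fewer cells of a type and less RNA per cell cannot be told apart.

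**Figure D2:**
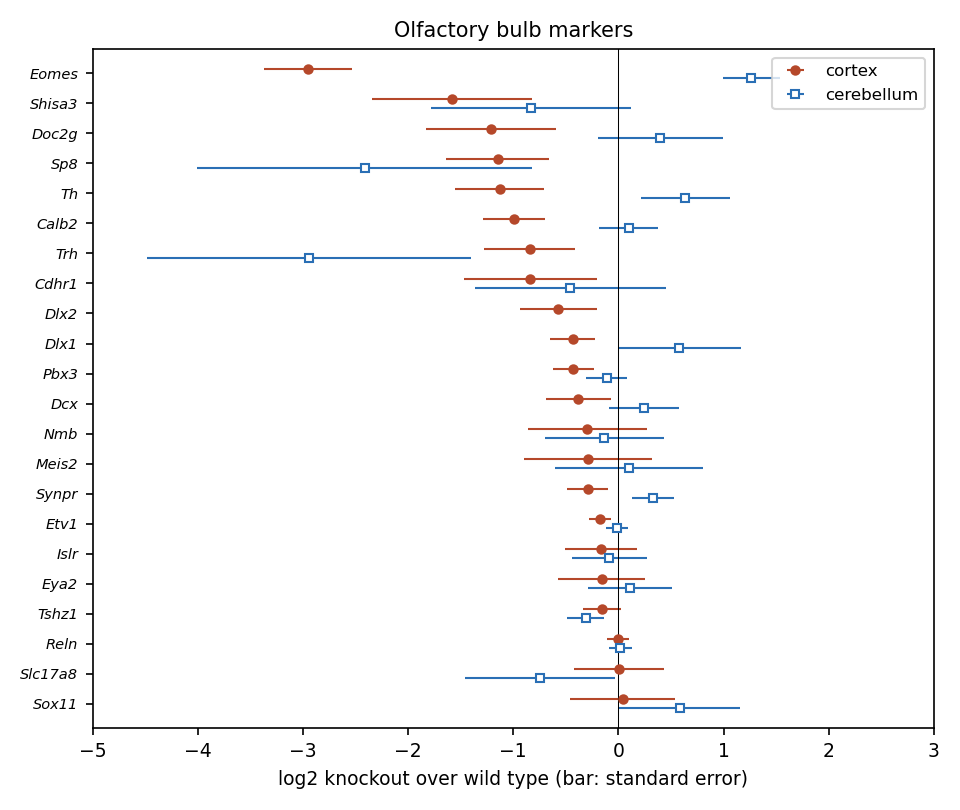
Effects of the 22 tested olfactory bulb markers, as log2 KO over WT with the SE as a bar, in the cortex (circles) and the cerebellum (squares). Nearly all cortical points lie at or left of 0, with Eomes farthest at −2.95, and the cerebellar points scatter on both sides. Dlx2 had no counts in the cerebellum and has no point there.

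Unipolar brush cells are the cerebellar neurons known for Eomes, and none of their other markers was higher there at an unadjusted p under 0.05. Of 11 such markers 9 were tested, with a median cerebellar effect of 0.05, and 1 of them, Eomes, was higher at an unadjusted p under 0.05. In the cortex 4 of the 9, Eomes and Calb2 included, were lower at that level, where 2.15% of all genes were. Calb2 averaged 253 ± 38.1 CPM in KO cerebellum and 236 ± 3.59 CPM in WT cerebellum (SD, n = 3 each).

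Vipr2, the receptor VPAC2 for the peptides VIP and PACAP, had the next smallest p and the same shape as Eomes. It measured 0.978, 1.11 and 0.747 CPM in KO cortex, against 3.35, 2.21 and 2.79 CPM in WT cortex. Its cerebellar level was 27.2, 24.7 and 21.5 CPM in KO libraries, against 13, 18 and 17.3 CPM in WT libraries. KO was below every WT library in the cortex and above every WT library in the cerebellum. The effects were −1.55 (SE 0.25, adjusted p = 0.0858) and 0.60 (SE 0.21, adjusted p = 0.963), and the difference of −2.15 (SE 0.33) had an unadjusted p of 1.98e-05 but an adjusted p of 0.165 in edgeR. Over 22 alternative settings the difference ranged from −2.271 to −2.003. It passed with DESeq2 (adjusted p = 4.74e-05) and with voom (adjusted p = 0.0445) and missed in the other settings.

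The early response genes leaned higher in KO in both regions, but not all of them by the same amount. Of 73 such genes in 6 lists (AP-1 subunits, Egr and Nab genes, NR4A receptors, other early transcription factors, effectors and kinase feedback genes) 71 were tested. In the cortex 56 of 71 lay above 0 (median 0.54), and in the cerebellum 55 of 71 did (median 0.31), against medians of 0.02 and −0.05 over all genes. At an unadjusted p under 0.05, 31 were higher and 2 lower in KO cortex, where 2.59% and 2.15% of all genes were, and 23 were higher and 1 lower in KO cerebellum, where 1.71% and 1.36% of all genes were. The difference of effects was centred near 0, with a median of −0.04. It nevertheless had an unadjusted p under 0.05 for 16 of the 71 genes, or 22.5%, against 2.02% of all genes, and none of the 16 passed after adjustment in edgeR. The cortex had the higher effect for 10 of them, namely Arc, Klf10, Junb, Bhlhe40, Egr1, Gadd45b, Btg2, Nab2, Dusp5 and Per1. It had the lower effect for 6, namely Klf6, Homer1, Nr4a3, Nr4a2, Ptgs2 and Maff. Without cerebellum KO 1 the counts were 11 and 9, where 1.79% and 1.2% of all genes were. Many of these genes were singled out by the study itself from these samples, and the lists were chosen with earlier results known. Neither their direction within a region nor their share with a difference is independent evidence.

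Arc, whose protein takes part in the removal of AMPA receptors from synapses, had the largest difference toward the cortex among the early genes. It reached 632, 510 and 714 CPM in KO cortex, against 181, 101 and 241 CPM in WT cortex. Cerebellar libraries held 23.9, 18.8 and 18.1 CPM in KO, against 25.7, 21 and 18.1 CPM in WT libraries. The cortical groups lay wide apart and the cerebellar groups overlapped. Arc rose by 1.82 (SE 0.26, adjusted p = 0.0491) in the cortex, its cerebellar effect was −0.11 (SE 0.27), and the difference was 1.93 (SE 0.37, unadjusted p = 0.000165, adjusted p = 0.917). With DESeq2 and voom the difference passed, at adjusted p = 0.0022 and 0.0445.

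Egr1 and Junb shared this pattern. Egr1, a zinc finger transcription factor, had 605, 379 and 528 CPM in KO cortex, against 280, 226 and 233 CPM in WT cortex. The cerebellum held 46.4, 37.2 and 37.5 CPM in KO libraries, against 39.6, 41.4 and 38.9 CPM in WT libraries. Every KO cortex library thus exceeded every WT cortex library, while the cerebellar libraries were intermixed. The cortical effect of Egr1 was 1.03 (SE 0.16) and just missed the threshold in edgeR without a block (adjusted p = 0.0582). It passed with the replicate number as a block (adjusted p = 0.0229), with DESeq2 (adjusted p = 4.17e-06) and with voom (adjusted p = 5.55e-05). The cerebellar effect was 0.01 (SE 0.16), and the difference was 1.02 (SE 0.23, adjusted p = 1 in edgeR, 0.00762 with voom). Junb, an AP-1 subunit that pairs with Fos proteins, had 85.2, 68 and 99.6 CPM in KO cortex, against 30.2, 20.1 and 32.5 CPM in WT cortex. The cerebellar levels were 3.62, 7.31 and 6.69 CPM in KO libraries, against 4.29, 5.34 and 5.74 CPM in WT libraries, which overlap. Junb rose by 1.60 (SE 0.24, adjusted p = 0.0491) in the cortex, and its difference was 1.34 (SE 0.35, unadjusted p = 0.00219).

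Nab2, Dusp5, Gadd45b, Bhlhe40 and Klf10 also had differences toward the cortex, at unadjusted p only. Nab2, a corepressor that binds and restrains Egr proteins, had 47.5, 43.8 and 49.2 CPM in KO cortex, against 29.3, 24 and 26 CPM in WT cortex, and overlapping levels in the cerebellum, with a difference of 0.66 (SE 0.26). Without cerebellum KO 1 that difference was 0.93 (SE 0.17, unadjusted p = 0.000174). Dusp5, a nuclear phosphatase that switches off ERK, had a difference of 0.65 (SE 0.23), and Gadd45b, a stress and activity-induced protein, had a difference of 0.98 (SE 0.32). Bhlhe40, a repressor linked to the circadian clock, measured 183, 120 and 172 CPM in KO cortex, against 108, 76.6 and 95.5 CPM in WT cortex. Cerebellar levels were 65, 55.7 and 61.7 CPM in KO libraries, against 76.9, 69.2 and 77.8 CPM in WT libraries. It was thus above every WT library in the cortex and below every WT library in the cerebellum, with a difference of 1.06 (SE 0.23, unadjusted p = 0.000506). Klf10, a Kruppel-like factor induced by TGF-beta, took the same form, with 60.8, 52.3 and 54.4 CPM in KO cortex against 34.1, 30.7 and 35.7 CPM in WT cortex. Its cerebellar levels were 3.77, 15.8 and 14.6 CPM in KO libraries, against 21.6, 20.2 and 16.2 CPM in WT libraries, and the lowest of these was the shallow library cerebellum KO 1. The Klf10 difference was 1.45 (SE 0.45) with that library and 1.07 (SE 0.19, unadjusted p = 0.000108) without it.

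**Figure D3:**
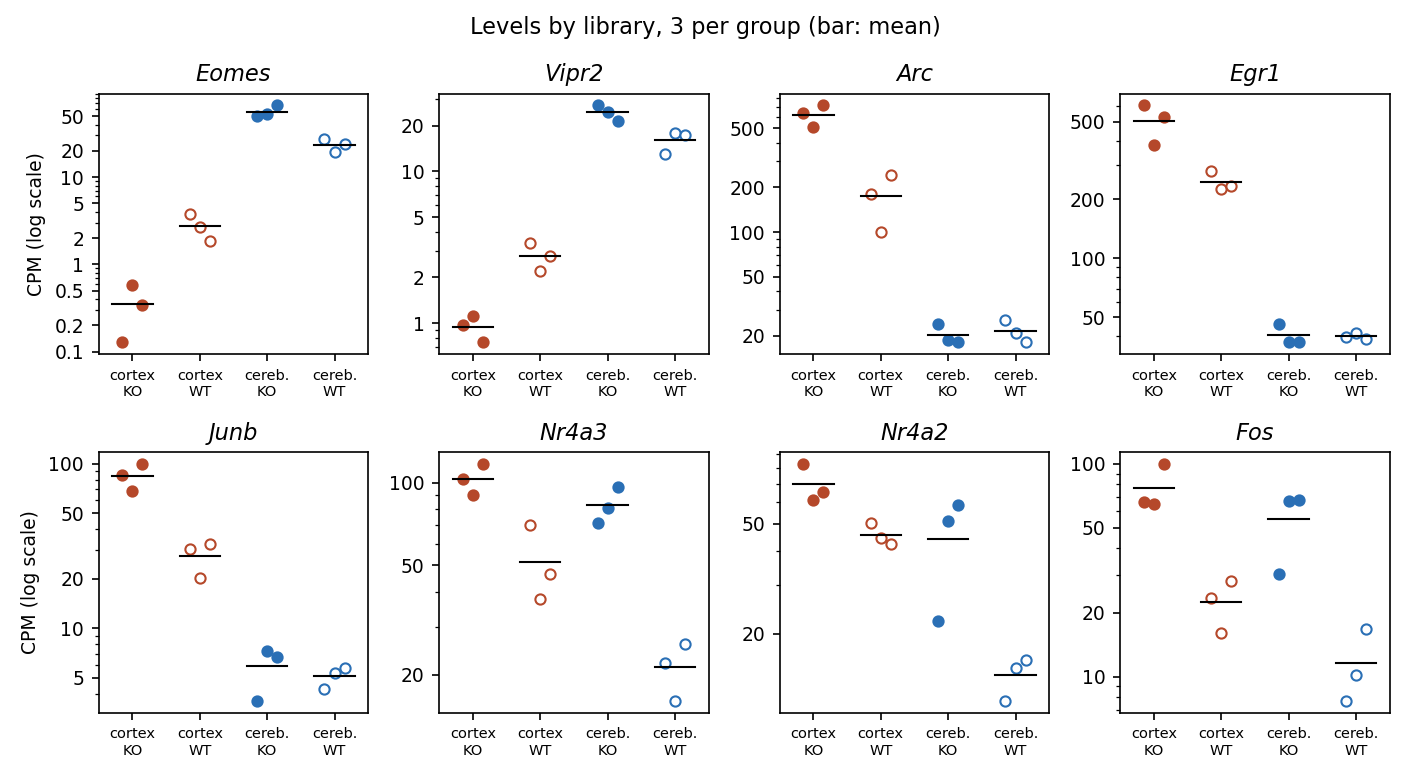
Levels of 8 genes in each of the 12 libraries, in CPM on a log axis, with KO as filled and WT as open circles and the mean as a bar. Arc, Egr1 and Junb keep KO apart from WT in the cortex and overlap in the cerebellum, Nr4a3, Nr4a2 and Fos keep them apart in both regions, and Eomes and Vipr2 are lower in KO cortex and higher in KO cerebellum.

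Fos and the NR4A receptors departed from that pattern in that KO exceeded WT in both regions. They were not alone in this, as Per1, Sik1 and Banp below were also higher in both. The NR4A genes encode orphan nuclear receptors, transcription factors with no settled natural ligand. Promoter windows of the 3 NR4A genes are shown with those of Fos and Junb, because Fos and NR4A genes were higher in both regions and Junb in the cortex. Each runs 5′ to 3′ from 250 bases before to 50 after the gene's start (RefSeq, GRCm38.p6), on the gene's strand, and the capitals mark TGACG on either strand. Matches on the opposite strand read CGTCA in these lines. The motif is the core of the cyclic AMP response element known to bind CREB.
Nr4a1, chr15:101266596-101266895, plus strand: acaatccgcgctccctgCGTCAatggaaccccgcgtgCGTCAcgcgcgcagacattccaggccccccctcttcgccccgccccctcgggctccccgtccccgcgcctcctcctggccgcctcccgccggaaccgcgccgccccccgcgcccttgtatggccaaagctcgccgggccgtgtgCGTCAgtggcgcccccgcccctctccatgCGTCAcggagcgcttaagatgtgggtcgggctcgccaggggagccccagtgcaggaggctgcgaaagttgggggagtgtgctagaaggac
Nr4a2, chr2:57123954-57124253, minus strand: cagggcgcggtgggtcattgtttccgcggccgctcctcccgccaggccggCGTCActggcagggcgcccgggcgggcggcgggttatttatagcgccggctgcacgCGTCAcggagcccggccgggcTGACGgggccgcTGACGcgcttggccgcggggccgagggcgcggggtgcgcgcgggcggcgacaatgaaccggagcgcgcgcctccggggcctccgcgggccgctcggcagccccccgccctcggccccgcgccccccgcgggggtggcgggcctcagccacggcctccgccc
Nr4a3, chr4:48045055-48045354, plus strand: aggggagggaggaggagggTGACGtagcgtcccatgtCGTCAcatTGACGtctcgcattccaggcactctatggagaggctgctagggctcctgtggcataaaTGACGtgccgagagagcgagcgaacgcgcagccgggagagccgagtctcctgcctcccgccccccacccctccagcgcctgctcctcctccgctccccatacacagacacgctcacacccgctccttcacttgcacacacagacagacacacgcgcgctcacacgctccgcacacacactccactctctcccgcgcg
Fos, chr12:85473640-85473939, plus strand: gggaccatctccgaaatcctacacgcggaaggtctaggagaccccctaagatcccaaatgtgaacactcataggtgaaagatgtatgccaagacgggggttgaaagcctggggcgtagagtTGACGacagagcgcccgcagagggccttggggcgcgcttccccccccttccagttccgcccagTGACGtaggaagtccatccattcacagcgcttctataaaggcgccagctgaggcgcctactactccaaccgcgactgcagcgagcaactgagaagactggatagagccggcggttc
Junb, chr8:84978699-84978998, minus strand: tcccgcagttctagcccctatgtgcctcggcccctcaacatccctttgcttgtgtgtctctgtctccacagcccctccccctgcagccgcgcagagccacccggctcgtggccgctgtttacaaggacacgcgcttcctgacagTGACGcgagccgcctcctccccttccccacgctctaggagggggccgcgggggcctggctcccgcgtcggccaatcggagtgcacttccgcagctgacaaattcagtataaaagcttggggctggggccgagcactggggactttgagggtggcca

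Each of the 3 NR4A windows held the motif in 4 places, the Fos window in 2 and the Junb window in 1. Of 32851 promoter windows of the same length, 20.8% held it at least once, 5.01% in 2 or more places and 0.231% in 4 or more. Among the other early genes with a window, Dusp1 and Homer1 held it in 3 places, Npas4, Btg2 and Maff in 2, Per1, Ptgs2 and Dusp5 in 1, and Gadd45b, Nab2 and Klf6 in none, taking the highest count where a gene has several windows. These matches describe letters in a window and do not show binding.

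Nr4a3 was the gene besides Cdr1as that passed in the cerebellum. It had 71.4, 81.1 and 96.8 CPM in KO cerebellum, against 22.2, 16.1 and 25.9 CPM in WT cerebellum, and 103, 89.9 and 117 CPM in KO cortex, against 69.9, 37.9 and 46.4 CPM in WT cortex. The groups did not overlap in either region. Nr4a3 rose by 1.96 (SE 0.23, adjusted p = 0.0113, edgeR) in the cerebellum, and its cortical effect of 1.003 (SE 0.22, adjusted p = 0.408) did not pass. Leaving out cerebellum KO 2 or 3 or cerebellum WT 1 or 2 ended the cerebellar call, with adjusted p-values of up to 0.129. The difference was −0.96 (SE 0.31, unadjusted p = 0.00974, adjusted p = 1), so an unequal response was not established after adjustment.

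Nr4a2, known for its role in dopamine neurons, followed Nr4a3. It measured 82.6, 61 and 65.1 CPM in KO cortex, against 50.4, 44.6 and 42.2 CPM in WT cortex. The cerebellum gave 22.3, 51.2 and 58.7 CPM in KO libraries, against 11.4, 15 and 16.1 CPM in WT libraries. All KO libraries exceeded all WT libraries in both regions, and the lowest cerebellar KO value was again cerebellum KO 1. The difference was −1.05 (SE 0.38, unadjusted p = 0.0173) with that library and −1.37 (SE 0.23, unadjusted p = 7.48e-05, adjusted p = 0.318) without it, and voom put it at −1.24 (adjusted p = 0.0313). Nr4a1, the third receptor, had effects of 1.49 (SE 0.30) in the cortex and 1.57 (SE 0.31) in the cerebellum. Its difference of −0.09 had a 95% interval of −0.996 to 0.821, which leaves room for a sizeable inequality in either direction.

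Fos, the partner of Jun proteins in AP-1, had 65.8, 64.9 and 99.9 CPM in KO cortex, against 23.4, 16 and 28.1 CPM in WT cortex. Its cerebellar levels were 30.3, 66.7 and 67.7 CPM in KO libraries, against 7.69, 10.2 and 16.7 CPM in WT libraries. KO lay above WT in all libraries of both regions. The effects were 1.76 (SE 0.34, adjusted p = 0.235) and 2.27 (SE 0.35, adjusted p = 0.136), and the difference of −0.51 (SE 0.48) had a 95% interval of −1.54 to 0.52. With the replicate number as a block within each region, Fos and Nr4a1 passed in the cortex and in the cerebellum, and Nr4a2 in the cerebellum. Leaving out cerebellum KO 1, Fos and Nr4a2 passed in the cerebellum. Npas4, a neuronal activity factor, Dusp1, a phosphatase of MAP kinases, and Klf4, a Kruppel-like factor, had differences of 0.06 (SE 0.64), −0.13 (SE 0.45) and −0.05 (SE 0.52). Each of these was above 0 in both regions, by 0.97 to 1.64 in the cortex and 1.02 to 1.58 in the cerebellum. The wide intervals mean that equal responses are not shown.

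The other AP-1 subunits shared no direction of difference. Fosb and Fosl2, relatives of Fos, had larger cerebellar than cortical estimates, with differences of −1.27 (SE 0.82) and −0.63 (SE 0.38), and neither had an unadjusted p under 0.05. Without cerebellum KO 1, in which Fosb was at 0, the Fosb difference was −1.71 (SE 0.45, unadjusted p = 0.00257). Jun had effects of 0.50 (SE 0.19) in the cortex and 0.18 in the cerebellum, and Jund, which is less inducible, had 0.08 and 0.27. Maff, a small Maf protein, measured 4.2, 1.03 and 0.64 CPM in KO cerebellum, against 0.48, 0.0613 and 0.179 CPM in WT cerebellum, and its difference of −2.45 (SE 1.08) became −1.27 (SE 0.75) without cerebellum KO 1. Egr2 could not be read in the cerebellum, where it had 2.61 CPM in KO 1 and 0 to 0.16 CPM in the other 5 libraries. In the cortex Egr2 had 28.5, 24.6 and 37.6 CPM in KO libraries, against 10.2, 5.12 and 8.95 CPM in WT libraries.

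**Figure D4:**
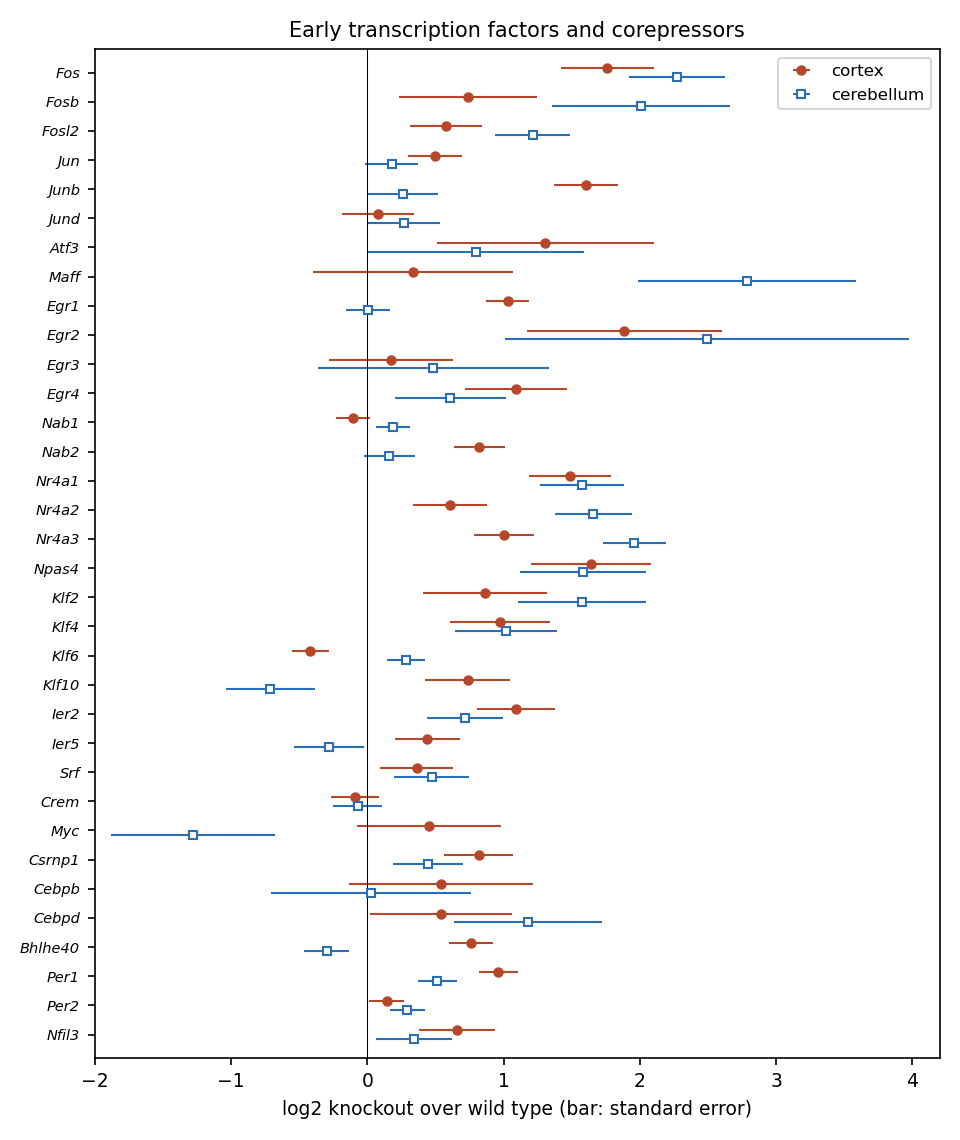
Effects of the tested early transcription factors and the Nab corepressors, as log2 KO over WT with the SE as a bar, in the cortex (circles) and the cerebellum (squares). Junb, Egr1, Nab2 and Bhlhe40 have cortical points well right of their cerebellar points, Nr4a2 and Nr4a3 the reverse, and Nr4a1, Npas4 and Klf4 nearly coincide.

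The effector genes at the synapse did not share a direction. Homer1, a postsynaptic scaffold protein, measured 368, 529 and 456 CPM in KO cortex, against 640, 508 and 404 CPM in WT cortex, which overlap. It was higher in KO cerebellum, at 141, 114 and 120 CPM, against 109, 71.9 and 77.8 CPM in WT cerebellum, with a difference of −0.73 (SE 0.28, unadjusted p = 0.0207). Ptgs2 (cyclooxygenase 2) had a difference of −1.30 (SE 0.48) from low cerebellar levels of 1.05 to 3.19 CPM in KO and 0.359 to 0.859 CPM in WT, and one of −0.85 (SE 0.36) without cerebellum KO 1, the highest of them. Sik1, a kinase induced by cyclic AMP that holds back CREB coactivators, was above every WT library in both regions, with effects of 1.03 (SE 0.17, adjusted p = 0.0858) and 0.69 (SE 0.17) and a difference of 0.34 (SE 0.24). Over the 15 kinase feedback genes the median effect was 0.35 in the cortex and 0.30 in the cerebellum, and 1 gene, Dusp5, had a difference with an unadjusted p under 0.05.

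Per1, a clock repressor that is also an early response gene, rose in the cortex and leaned the same way in the cerebellum. It had 207, 177 and 204 CPM in KO cortex, against 107, 89.8 and 105 CPM in WT cortex. The cerebellum gave 118, 145 and 162 CPM in KO libraries, against 89, 92.9 and 116 CPM in WT libraries. No KO library lay within the WT range in either region. Per1 rose by 0.96 (SE 0.14, adjusted p = 0.0491) in the cortex, the cerebellar effect was 0.51 (SE 0.14, adjusted p = 0.963), and the difference of 0.45 (SE 0.20) became 0.32 (SE 0.19, unadjusted p = 0.11) without cerebellum KO 1. None of the other clock genes passed in either region in the main edgeR fit. Bhlhe40 passed in the cortex with the replicate number as a block, and Dbp in the cerebellum with DESeq2. Ciart, a repressor of the clock activators, measured 5.65, 5.99 and 8.03 CPM in KO cerebellum, against 9.74, 13.4 and 11.6 CPM in WT cerebellum. The Ciart difference was 0.84 (SE 0.37). Dbp, a clock output factor, had 42.6, 39.2 and 41.6 CPM in KO cerebellum, against 57.1, 75.6 and 70 CPM in WT cerebellum, with effects of −0.30 in the cortex and −0.72 in the cerebellum and a difference of 0.42 (SE 0.20, unadjusted p = 0.0632). Nr1d2, a nuclear receptor of the clock, had effects of −0.42 (SE 0.13) in the cortex and −0.23 (SE 0.13) in the cerebellum. The 22 clock genes had a median difference of 0.04, with 3 higher and none lower at an unadjusted p under 0.05, namely Bhlhe40, Per1 and Ciart, where 1.15% and 0.864% of all genes were. Of the 22 genes 1 was higher without cerebellum KO 1.

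Leaving out single libraries weighed on the cortical calls of edgeR without a block. With the replicate number as a block and all 12 libraries, edgeR called Arc (adjusted p = 0.00235), Junb and Per1 (adjusted p = 0.00685 each). Eomes missed there (adjusted p = 0.0836). The fits that left out a library had no block. The calls of Arc, Junb, Per1 and Eomes in the cortex were all lost without cortex KO 1 or 3, cortex WT 1, cerebellum KO 2 or 3, or any cerebellum WT library. Of these 4, without cortex KO 2 only Eomes passed, without cortex WT 2 only Arc, and without cortex WT 3 only Arc and Eomes. Without cerebellum KO 1 all 4 passed, with Frmd6 and Nab2 besides, and Cdr1as passed in every such fit. Over the 12 fits the Arc effect in the cortex lay between 1.55 and 2.14, that of Junb between 1.42 and 1.74 and that of Per1 between 0.89 and 1.03.

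Rara, Slc6a7 and Chrm4 had differences toward the cortex that did not pass in edgeR (adjusted p = 1 for each). Rara, the retinoic acid receptor alpha, had 22.7, 18.1 and 17.6 CPM in KO cortex, against 12.9, 10.9 and 12.1 CPM in WT cortex. In the cerebellum it had 22.5, 25.1 and 26.2 CPM in KO libraries, against 33.7, 29.8 and 29.3 CPM in WT libraries. KO was above WT in all cortex libraries and below it in all cerebellum libraries, and the difference was 1.03 (SE 0.21, unadjusted p = 0.00031), which passed with DESeq2 and voom (adjusted p = 0.00357 and 0.0445). Slc6a7, a brain transporter of proline, showed the same opposition on a smaller scale, with 69.1, 71.4 and 72.6 CPM in KO cortex against 56.6, 58.6 and 59.1 CPM in WT cortex. Its cerebellar levels were 8.98, 10.5 and 11.1 CPM in KO libraries, against 15.2, 12.6 and 12.4 CPM in WT libraries, and the difference was 0.68 (SE 0.17).

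Chrm4, the muscarinic acetylcholine receptor M4, had 58.5, 50.6 and 51.5 CPM in KO cortex, against 31.8, 27.7 and 37.3 CPM in WT cortex. In the cerebellum it was scarce, with 0, 0.685 and 0.524 CPM in KO libraries, against 1.63, 1.1 and 1.26 CPM in WT libraries, so its difference of 2.19 (SE 0.47) rests on 21 counts in KO cerebellum and 90 in WT cerebellum. Hivep3, a zinc finger factor, had a difference of 0.79 (SE 0.20). Dnajb5, a co-chaperone of the Hsp40 family, had 183, 189 and 203 CPM in KO cortex, against 138, 111 and 121 CPM in WT cortex, and a cerebellar effect near 0, with a difference of 0.55 (SE 0.15). For Cirbp, a cold-inducible RNA-binding protein, the contrast came from the cerebellum, at 23, 33 and 29.3 CPM in KO libraries, against 45.1, 56.5 and 46.4 CPM in WT libraries. The cortical groups of Cirbp overlapped at 28.1 to 33.8 CPM in KO and 27.4 to 31.2 CPM in WT, and its difference was 0.83 (SE 0.22, unadjusted p = 0.00207).

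Genes whose difference pointed away from the cortex included several with high cerebellar levels. Zic1 and Zic4, neighbouring zinc finger factors of granule cells, were lower in KO cortex, while their cerebellar levels overlapped. Zic1 measured 14, 17.9 and 19.8 CPM in KO cortex, against 44.7, 26.8 and 30.5 CPM in WT cortex, and 875, 722 and 725 CPM in KO cerebellum, against 864, 662 and 691 CPM in WT cerebellum. Its difference was −1.05 (SE 0.26, unadjusted p = 0.00164), and that of Zic4 was −0.70 (SE 0.20). Of the 20 granule cell markers, 3 had a lower difference at an unadjusted p under 0.05, where 0.864% of all genes did, the third being Gabra6, a GABA receptor subunit with 0 to 0.0444 CPM in KO cortex and 0.0765 to 0.695 CPM in WT cortex. The median of the granule cell list was −0.14 in the cortex and −0.01 in the cerebellum, with summed levels of 1948 to 2420 CPM in KO cortex and 1740 to 2293 CPM in WT cortex, which overlap.

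Lgr5, a receptor for R-spondins that strengthens Wnt signalling, had 3.32, 4.71 and 3.19 CPM in KO cortex, against 7.27, 8.33 and 5.35 CPM in WT cortex. In the cerebellum it had 26.1, 21.1 and 21.1 CPM in KO libraries, against 18.9, 17.9 and 17.3 CPM in WT libraries. It was thus below every WT library in the cortex and above every one in the cerebellum, with a difference of −1.21 (SE 0.30). Kctd8, an auxiliary subunit of GABA-B receptors, and Fem1c, a substrate receptor of a ubiquitin ligase, were opposed in the same way, with differences of −0.91 (SE 0.23) and −0.93 (SE 0.24). In both the highest cerebellar value was that of KO 1, and without it their differences were −0.74 (SE 0.18) and −0.72 (SE 0.18). Klf6, B3galt2 and 1190002N15Rik were lower in every KO cortex library and overlapped in the cerebellum, with differences of −0.70 (SE 0.19), −0.74 (SE 0.22) and −0.80 (SE 0.21). Klf6 is a Kruppel-like factor, and B3galt2 encodes a galactosyltransferase.

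GABA and glycine receptor subunits leaned lower in KO cortex, and 6 of 18 markers of inhibitory neurons lay above 0 there. Of 19 subunits of GABA and glycine receptors, 17 were not above 0 in the cortex, with a median of −0.33, and 16 were not in the cerebellum, with a median of −0.13. At an unadjusted p under 0.05, 6 were lower and none higher in KO cortex, where 2.15% of all genes were lower, and none passed after adjustment. Gabra4 measured 108, 128 and 102 CPM in KO cortex, against 147, 154 and 149 CPM in WT cortex, with a difference of −0.50 (SE 0.21). Gabrb2 measured 365, 407 and 364 CPM in KO cortex, against 517, 498 and 435 CPM in WT cortex, with a difference of −0.38 (SE 0.16). The KO and WT cortex libraries did not overlap for either subunit. Gad2, which makes GABA in inhibitory neurons, had 223, 241 and 248 CPM in KO cortex, against 334, 294 and 314 CPM in WT cortex, and 155 ± 20.6 CPM in KO cerebellum, against 155 ± 20.1 CPM in WT cerebellum (SD, n = 3 each). The 18 markers of cortical inhibitory neurons had a median of −0.07 in the cortex and 0.04 in the cerebellum. Their summed levels were 1490 to 1580 CPM in KO cortex and 1430 to 1869 CPM in WT cortex. At an unadjusted p under 0.05, 2 of them, Gad2 and Calb2, were lower and none higher in KO cortex. The difference was lower for 3 and higher for 1 at that level, where 0.864% and 1.15% of all genes were. Sst, the peptide somatostatin, had a difference of 2.46 (SE 1.02) from scarce cerebellar levels of 0.145, 1.37 and 0.931 CPM in KO, against 9.96, 0.552 and 1.79 CPM in WT. Sst and Pvalb (parvalbumin) had cortical effects of 0.24 (SE 0.55) and 0.10 (SE 0.17), each smaller than its SE. The part of inhibitory cell content in the receptor values was not tested. Glutamate receptor subunits showed no lean, with a median difference of −0.02 and none of 24 at an unadjusted p under 0.05.

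**Figure D5:**
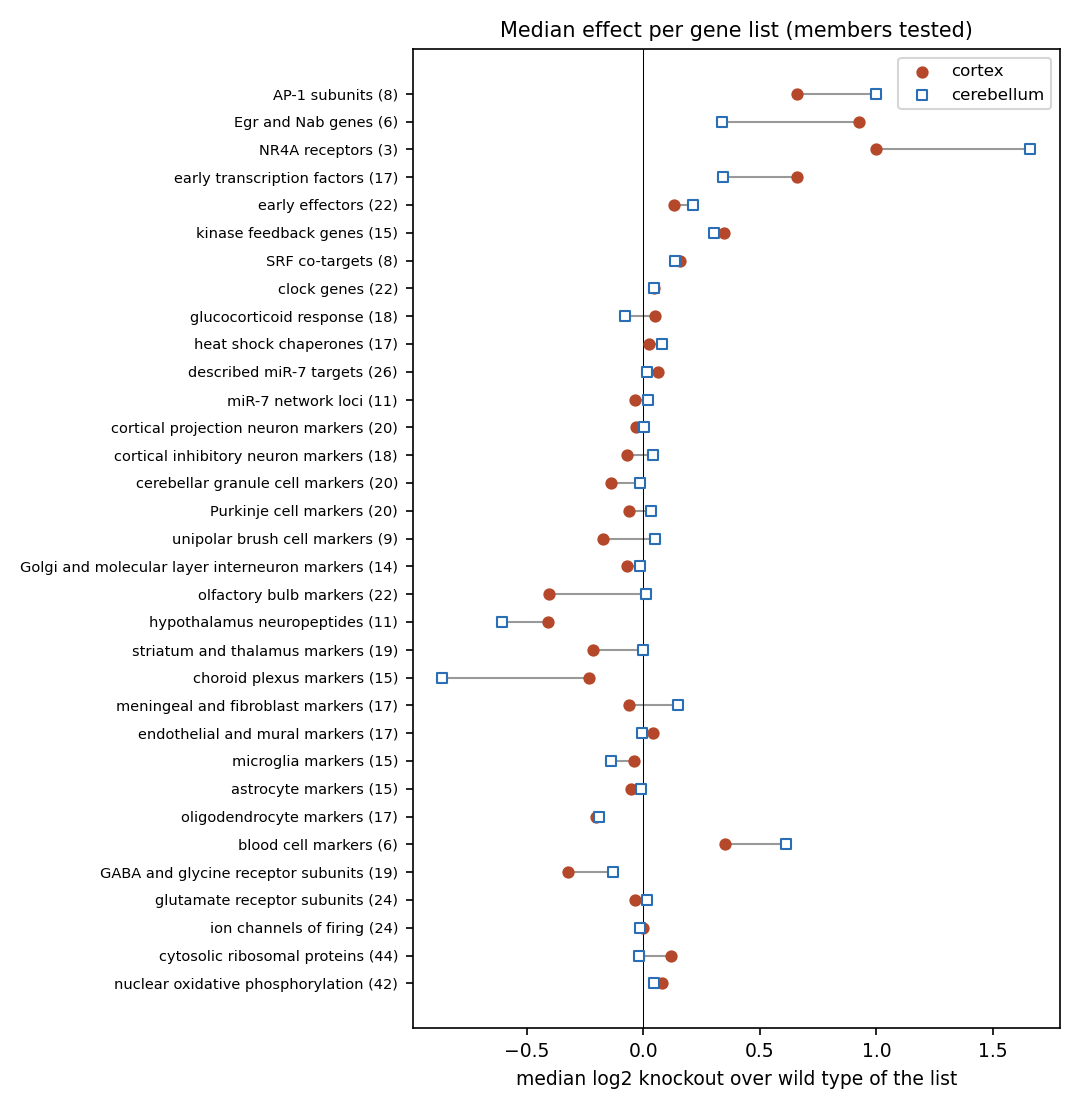
Median effect of the tested members of each of the 33 gene lists, as log2 KO over WT, in the cortex (circles) and the cerebellum (squares), with the number tested in brackets. The early response lists lie to the right in both regions, the olfactory bulb list lies left of 0 in the cortex at −0.41, and the choroid plexus and hypothalamus lists lie left of 0 in both regions.

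Markers of neighbouring tissue and of glia gave the background to these contrasts. Choroid plexus markers, which follow how much of that tissue a dissection takes along, summed to 248 to 582 CPM in KO cortex against 287 to 645 CPM in WT cortex, and to 484 to 1209 CPM in KO cerebellum against 148 to 2071 CPM in WT cerebellum, with none of 15 at an unadjusted p under 0.05 for the difference. Projection neuron markers had a median difference of 0.01, Purkinje cell markers −0.10, astrocyte markers −0.02 and oligodendrocyte markers −0.04. The oligodendrocyte markers leaned lower in KO in both regions, with medians of −0.20 in the cortex and −0.19 in the cerebellum. Of the 17 tested, 3 lay above 0 in the cortex and 4 in the cerebellum. Striatal and thalamic markers had a median effect of −0.22 in the cortex, with 2 of 19 above 0, and 0 in the cerebellum. Hypothalamic neuropeptides had medians of −0.41 in the cortex and −0.61 in the cerebellum. The 44 cytosolic ribosomal protein genes leaned to the cortex, with 35 above 0 (9696 of 16663 genes in all) and a median difference of 0.14 against 0.06 over all genes, or 0.08 without cerebellum KO 1, and none had an unadjusted p under 0.05. The share of reads in no annotated gene was 30.5%, 53.7% and 33.6% in KO cortex, against 20.3%, 56.2% and 34.9% in WT cortex, and its part in these values was examined only as a covariate.

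The described targets of miR-7 had differences centred close to 0. Of 26 tested, 12 had a difference above 0, with a median of −0.02, and 2 had a lower difference at an unadjusted p under 0.05, namely Nr4a3 and Sp1, where 0.864% of all genes did. Sp1, a general transcription factor, had a difference of −0.44 (SE 0.19). Irs2, an adaptor of the insulin receptor, had a difference of 0.11 (SE 0.34) with a 95% interval of −0.61 to 0.84.

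C230004F18Rik, a transcript of the locus around Cdr1as, was higher in KO libraries of both regions. It had 72, 243 and 87.5 CPM in KO cortex, against 18.7, 113 and 35.2 CPM in WT cortex, and 236, 274 and 216 CPM in KO cerebellum, against 76.4, 128 and 102 CPM in WT cerebellum. Each KO library exceeded the WT library of the same number in both regions, and the difference was 0.05 (SE 0.78). With the replicate number as a block it passed in the cortex. Cdr1 had no count in any KO library, 0.0382 to 0.253 CPM in WT cortex and 0.359 to 4.66 CPM in WT cerebellum, and was too low to be tested. These genes overlap at the locus, and whether the counting used strand is not given in the sources used here, so their values are uncertain.

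Banp, a DNA-binding protein of CpG-rich promoters, had like effects in both regions. Neither passed in the main edgeR fit (adjusted p = 0.235 in the cortex and 0.345 in the cerebellum), and DESeq2 called the cerebellar one. It had 40.2, 46.3 and 45.1 CPM in KO cortex, against 30.9, 24.6 and 26.5 CPM in WT cortex. The cerebellum gave 72.9, 59 and 71.5 CPM in KO libraries, against 42.2, 37.4 and 43.5 CPM in WT libraries. Groups were separate in both regions. The effects were 0.68 and 0.72, the difference was −0.04 (SE 0.18), and its 95% interval was −0.44 to 0.36. Of all genes with an unadjusted p under 0.05 in both regions, 65 had the same sign (0.39%) and 9 opposite signs (0.054%), the 65 making up 8.23% of the cortical and 12.7% of the cerebellar list. The 9 were Chrm4, Klf10, Rara, Slc6a7 and Sox8, higher in the cortex and lower in the cerebellum, and Eomes, Vipr2, Kctd8 and Fem1c, the reverse.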

How the data were processed

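Ribosomal RNA-depleted total RNA from dissected mouse brain regions was counted per gene. The deposited files hold whole-number read counts per Ensembl gene, made by the authors, with 37621 entries a table. The submitters' processing notes name the mouse build mm9 and the tools STAR 2.5.1b, HTSeq 0.6.1p1 and bcl2fastq 2.17.1.14. What each tool did and whether strand was used in counting is not given in the sources used here. Reads in no annotated gene (20.3% to 61.5% of a library), not unique (8.9% to 18.7%) or ambiguous (0.23% to 0.45%) entered neither library sizes nor tests. Gene symbols were matched by Ensembl identifier to an annotation of GRCm38, which named 32897 identifiers holding 98.47% of the counts. That annotation gave names only.

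The 12 libraries were fitted together in edgeR 4.0.16 (R 4.3.3) with TMM scaling, a filter on low counts (filterByExpr, minimum 10) and a quasi-likelihood test of each region's effect and of their difference, with Benjamini-Hochberg adjustment at 0.05. The fit had 8 residual degrees of freedom. CPM are counts per 1e6 of the TMM-scaled library size. SEs were taken from the estimate and its test, and intervals are at the 95% level. The test was also run on simulated counts with less spread between replicates than these libraries had and no pairing. That run does not show how the test behaves at the spread seen here. Alternatives were DESeq2 1.42.0, limma 3.58.1 (voom with sample quality weights), other scalings and filters, all 24 libraries in 1 fit, replicate blocks, the share of reads in no annotated gene as a covariate, and leaving out each library. At the lowest depth, 3 counts correspond to 0.462 CPM, and such limits cover counting error only.

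Same-numbered KO and WT cortex libraries deviated together from their group means (r = 0.432, 0.565 and 0.131), so the numbers were taken to pair them, although the third pair correlated better with another number (0.302). In the cerebellum the 3 correlations were 0.0579, 0.102 and 0.0878. Each exceeded the highest with another number (−0.00744, −0.0229 and 0.00422), yet the numbers were not taken to pair there. This choice was uneven between the regions. The main fit of the difference had no block, so it does not account for any such pairing. The Eomes call for the difference was made without a block and was lost with either block. No 2 libraries of a group agreed within sampling noise.

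Named genes were the 10 with the smallest p of the difference in each direction at a mean log2 CPM of at least 0; from each list up to 4 members with an unadjusted p under 0.05, or else the 1 with the smallest p; the targeted gene with Cdr1 and C230004F18Rik; a set of early response genes with Eomes, Dbp and Irs2; genes past the threshold within a region; and up to 6 genes with an unadjusted p under 0.05 in both regions and opposite signs, and 6 with the same sign. Jun, Jund, Sp8, Sox8, Nr1d2 and Pvalb were added after their values were seen. The genes and the 33 lists were chosen with earlier results of these data known. Promoter and microRNA sequences are from RefSeq (GRCm38.p6), matched by symbol. Arc, Egr1, Klf10, Bhlhe40 and Sik1 were not matched.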

Additional observations from a re-analysis of the deposited data

Results flagged for a closer look

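A group of 10 genes had KO on one side of WT in every cortex library and on the other side in every cerebellum library, among those named above. These genes had been named for a small p of the difference or for opposite effects. Their opposition thus follows in part from how they were chosen and is not evidence of its own. Such opposition held for 75 of 16663 genes (0.45%), and the share to be expected where nothing differs was not computed. For Eomes the test of the difference itself also passed, with a difference of −4.22. For the other 9 edgeR's test of the difference missed the threshold, with adjusted p-values of 0.165 for Vipr2 and 1 for the rest, so a difference between the regions was not established for them.

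Higher in KO cortex and lower in KO cerebellum were Klf10 (difference 1.45), Chrm4 (2.19), Bhlhe40 (1.06), Rara (1.03) and Slc6a7 (0.677). Lower in KO cortex and higher in KO cerebellum were Vipr2 (−2.15), Lgr5 (−1.21), Fem1c (−0.925) and Kctd8 (−0.907). The cerebellar value farthest from WT was that of the shallow library cerebellum KO 1 for Klf10, Chrm4, Slc6a7, Rara, Vipr2, Lgr5, Fem1c and Kctd8. The part of that library was measured by leaving it out, and the differences without it were 1.07, 1.88, 0.59, 0.95, −2.08, −1.11, −0.72 and −0.74 in that order.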

How the results depend on the processing

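The difference of effects kept its sign and its side of the threshold in 1523 of 1583 values, over 72 genes and 22 alternative settings. Of the others 11 lost the call, all for Eomes, 14 gained one and 35 changed sign. Genes called for the difference numbered 5 with DESeq2, 14 with voom and sample quality weights, and 0 with the covariate or either replicate block, against 1 in edgeR, and 0 to 1 on leaving out 1 library. At an unadjusted p under 0.05 there were 336 genes, against 1616 with voom, 514 without the filter, 594 and 580 with the block within a region and the block shared by both regions, 657 with the covariate and 197 to 579 on leaving out 1 library. Cortex calls numbered 56 with DESeq2, 119 with voom, 10 with the block within a region, 8 with the covariate and 1 to 7 on leaving out 1 library, against 5. Without the filter Arc dropped out of the 5 and Egr1 came in, and with all 24 libraries Arc and Junb dropped out. Cerebellum calls numbered 15 with DESeq2, 37 with voom, 4 with all 24 libraries, 5 with the block within a region and 1 to 4 on leaving out 1 library, against 2. The cause was not tested.

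For the difference the replicate numbers were not taken to pair the libraries. With the block within a region Eomes had −4.30 (adjusted p = 0.0906), with the shared block −4.18 (adjusted p = 0.132), and in that pairing of cortex with cerebellum each of the 6 libraries of a region correlated best with its own number, with r = 0.0449 to 0.385. The early response median of −0.04 ranged from −0.15 to 0.08 on leaving out 1 library. Some differences that were smaller than their SE in the main fit changed sign, among them Egr2 (−0.61, SE 1.54) and Hbb-bs (−0.37, SE 0.372). With voom Egr2 had 2.98, Npas4 −0.10, Banp 0.051 and Hbb-bs 0.14. On leaving out 1 library Egr2 ranged from −1.99 to 5.78, Npas4 from −0.32 to 0.41, Banp from −0.12 to 0.058, Hbb-bs from −0.56 to 0.068, Nr4a1 from −0.40 to 0.17, Irs2 from −0.15 to 0.46, Klf4 from −0.57 to 0.23, Dusp1 from −0.44 to 0.30 and C230004F18Rik from −0.70 to 1.06. Depth limits the genes scarce in 1 region, such as Chrm4 and Egr2 in the cerebellum and Eomes in the cortex.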

Other observations

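The hippocampus and olfactory bulb libraries give a setting for the genes that contrasted between cortex and cerebellum. With all 24 libraries fitted together in edgeR, the Arc effect was 1.83 in the cortex, 1.28 in the hippocampus, 1.33 in the olfactory bulb and −0.12 in the cerebellum. Egr1 had 1.04, 0.95, 1.24 and −0.00 in the same order, and Junb 1.60 (adjusted p = 0.135), 0.85, 1.43 and 0.26. Nr4a3 rose by 2.46 in the olfactory bulb (adjusted p = 2.15e-05) and by 1.95 in the cerebellum (adjusted p = 0.000874), with 1.01 in the cortex and 0.54 in the hippocampus. Nr4a2 rose by 1.60 in the olfactory bulb (adjusted p = 0.00992) and by 1.65 in the cerebellum (adjusted p = 0.00738), with 0.61 in the cortex and 0.11 in the hippocampus. Fos was between 1.67 and 2.27 in all 4 regions.

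Eomes fell by 2.95 in the cortex (adjusted p = 0.000316) and rose by 1.26 in the cerebellum (adjusted p = 0.0245) in that fit, and its effect was 0.08 in the hippocampus and −0.27 in the olfactory bulb, where mitral cells express it. Vipr2 had −1.54 in the cortex, 1.60 in the hippocampus, −0.10 in the olfactory bulb and 0.60 in the cerebellum, none of which passed after adjustment. Banp lay between 0.55 and 0.74 in all 4 regions and passed in the olfactory bulb (adjusted p = 0.0404). The differences between these regions, other than cortex minus cerebellum, were not tested.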
